A study of Oryza sativa with 18 samples.

Results

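Protein phosphatases of type 2C (PP2C) form 1 of the large families of rice protein phosphatases. They were followed here in flag leaves of a hybrid and its 2 parents with and without drought. Members were the rows of the deposited table whose best match in the NR or Swiss-Prot protein databases is described as a protein phosphatase 2C. This gave 122 genes of 38993 rows, 120 of them through Swiss-Prot, 79 through NR and 77 through both. Levels are in FPKM, fragments per transcript length and sequencing depth, and a member was tested when it reached 1 FPKM in 3 or more of the 18 libraries. That left 94 members, while 28 stayed below the filter. Of these 28, 5 were listed at 0 in all libraries and 23 were above 0 in at least 1.

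PP2Cs remove phosphate from serine and threonine residues and need magnesium or manganese to do so. Those of clade A act in the signalling of abscisic acid, the hormone that rises in drying leaves. Without the hormone they hold certain SnRK2 kinases, a family called SAPK in rice, in the inactive state. Once PYL receptors have bound abscisic acid, they seize the phosphatase, and the freed kinases phosphorylate bZIP transcription factors and ion channels. Genes of clade A are themselves known to be induced by abscisic acid in many plants, which is regarded as a negative feedback. Other clades act in immune and receptor signalling, in stress kinase cascades and in organelles.

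Hanyou73 is an elite hybrid rice, and Hanhui3 and Huhan7B are its parental lines. All were grown in one field, and drought meant that irrigation was withheld from early grain filling while the watered plants were irrigated. The groups were droughted Hanyou73, watered Hanyou73, droughted Hanhui3, watered Hanhui3, droughted Huhan7B and watered Huhan7B, each with 3 libraries of polyadenylated RNA. Each library was made from flag leaves pooled over plants of 1 plot, so p-values measure the spread between such pools. The table has 1 value per gene and library, so the parental alleles are not separated in the hybrid.

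The low values gave an estimate of 13.1 to 16.3 M counted fragments per library, and 19088 to 21021 genes reached 1 FPKM. Libraries of 1 group correlated at 0.982 to 0.989 and those of different groups at 0.837 to 0.957 (Pearson r over genes of log2(FPKM + 1)), and no library stood apart from its group. The 3 leaf markers, 2 Rubisco small subunit genes and Rubisco activase, were present in every library. Their summed level was 11860 to 11940 FPKM in droughted Hanyou73 and 2510 to 2637 FPKM in watered Hanyou73. It was 30390 to 31660 and 22520 to 23220 FPKM in droughted and watered Hanhui3, and 15590 to 16180 and 9083 to 9324 FPKM in droughted and watered Huhan7B. Both small subunit genes were higher in every droughted library than in any watered one of the same line. Rubisco activase (OsRcaII) was at 193 to 219.7 FPKM in droughted and 187 to 200 FPKM in watered Hanyou73, 7012 to 7540 and 10469 to 11025 FPKM in droughted and watered Hanhui3, and 5993 to 6664 and 3216 to 3393 FPKM in droughted and watered Huhan7B. Activase was thus far lower in all 6 hybrid libraries than in any parental one. The line labels were taken as given, since no genotype was checked, and every value of the hybrid against its parents rests on them. The sum of 3 cellulose synthase genes of secondary walls was 36.6 to 37.9 FPKM in droughted Hanyou73 and at most 1.34 FPKM in every other group. Of the 3 grain storage genes 1 passed the filter, and their sum stayed at 6.93 to 11.3 FPKM. Of 3 markers of dividing cells 2 passed and did not move alike. OsPCNA was at 18.0 to 20.1 FPKM in droughted and 18.1 to 20.8 FPKM in watered Hanyou73, and at 12.7 to 16.1 FPKM in the parents. The histone row H1 was at 2536 to 2559 FPKM in droughted and 742 to 806 FPKM in watered Hanyou73, 1762 to 1826 and 734 to 813 FPKM in droughted and watered Hanhui3, and 1778 to 1849 and 2974 to 3108 FPKM in droughted and watered Huhan7B. The part of these differences in the results for the hybrid and its parents was not tested. In bulk leaf RNA, fewer cells of a type and less RNA per cell cannot be told apart.

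The family was broadly expressed in the flag leaf. Of the 94 members tested, 77 had a mean of at least 1 FPKM in all 6 groups and 74 reached it in all 18 libraries. Their mean over all libraries ran from 0.524 to 176 FPKM with a median of 16.6 FPKM, beside a median of 11.1 FPKM over all tested genes. One member, OsPP2C05, averaged over 100 FPKM, 59 lay between 10 and 100 FPKM, and 34 lay below 10 FPKM. Just inside the filter were OsPP2C75 (Os11g0417400) and Os03g0268750, with 3 libraries at 1 FPKM. Just outside were OsPP2C16, Os01g0164650 and Os06g0717850, with 1 library each. The highest mean among the members left out was 0.478 FPKM, for OsPP123.

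The rule takes in rows that are not full phosphatase genes. A PP2C or SpoIIE type phosphatase domain was annotated in 87 of the 122 members and in 73 of the 94 tested. Among the 21 tested members without one were OsPP2C49, OsPP2C03 and OsPP2C43, whose names and best matches are phosphatases, and short loci next to a named member. The same Swiss-Prot protein was the best match of more than 1 member in 32 cases, which cover 71 members. For such neighbours the counting could have divided reads between copies or overlapping loci, so their values are uncertain. The libraries are strand-specific by their protocol, but the strand setting of the counting is not given in the sources used here.

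Drought changed how much of the family's transcript came from clade A, which is represented by 9 genes, all of which passed the filter. Their summed level was 1012 ± 19.7 FPKM in droughted Hanyou73 and 273 ± 11.9 FPKM in watered Hanyou73 (SD, n = 3 each). This was 32.7% and 11.9% of the summed FPKM of all members. In Hanhui3 the clade A sum was 333 ± 3.95 FPKM under drought and 166 ± 6.58 FPKM in water, and in Huhan7B it was 314 ± 1.32 FPKM under drought and 174 ± 8.77 FPKM in water. The clade A share was 14.8% in droughted and 7.90% in watered Hanhui3, and 16.0% in droughted and 8.34% in watered Huhan7B. The droughted libraries lay above the watered ones of the same line in all 3 lines. The sum over all other members was 2080 ± 27.1 FPKM in droughted and 2017 ± 49.3 FPKM in watered Hanyou73, and 1922 ± 24.5 and 1941 ± 74.3 FPKM in droughted and watered Hanhui3. In Huhan7B it was 1650 ± 18.6 FPKM under drought and 1911 ± 30.8 FPKM in water.

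**Figure D1:**
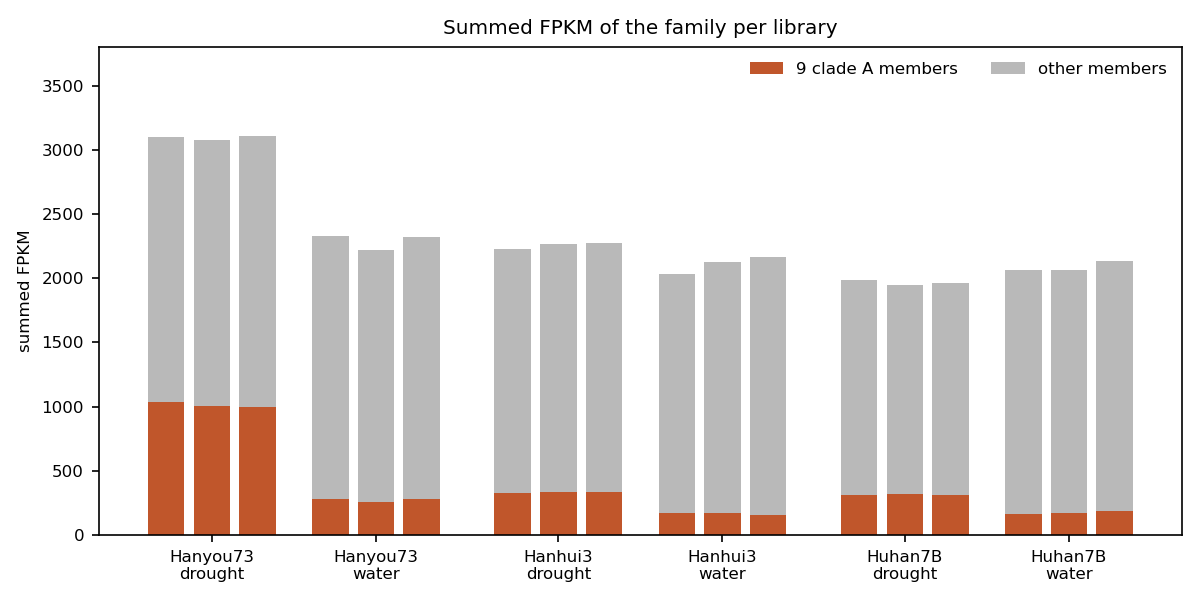
Summed FPKM of the family in each of the 18 libraries, with the clade A members at the base and all other members on top. The clade A part is tallest in the 3 droughted Hanyou73 libraries, at 997 to 1035 FPKM, and reaches at most 337 FPKM in any library of a parent.

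How many members responded to drought was close to the share over all genes, and the clade A genes stood out by size. In Hanyou73, 68 of 94 members passed the test, 45 higher and 23 lower, which is 72.3% beside 70.7% of all 22590 tested genes (limma, Benjamini-Hochberg adjusted p under 0.05 over all tested genes). Of all genes 45% were higher and 25.7% lower, beside 47.9% and 24.5% of the members. With libraries scaled to a common median ratio, the split was 34 higher and 30 lower. In Hanhui3, 45 members passed, which is 47.9% beside 53.6% of all genes. They were 33 higher (35.1% beside 35.1%) and 12 lower (12.8% beside 18.4%), and the scaled split was 27 to 25. In Huhan7B, 58 passed, which is 61.7% beside 53.3%. They were 19 higher (20.2% beside 21.2%) and 39 lower (41.5% beside 32.1%), and the scaled split was 23 to 30. The median log2 change of the 94 members was 0.16 in Hanyou73, 0.12 in Hanhui3 and -0.15 in Huhan7B, beside 0.18, 0.10 and -0.07 over all tested genes. Median-ratio scaling brought the last 3 values to 0.0222, 0.00354 and 0.00928, so calls on small changes depend on it. The counts of rises also depend on the filter. Of the 86 members at the filter in 3 or more watered libraries, 37 rose (43.0%) and 23 fell (26.7%) in Hanyou73. In Hanhui3 30 rose (34.9%) and 12 fell (14.0%), and in Huhan7B 15 rose (17.4%) and 39 fell (45.3%). This limit was chosen after seeing the data.

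At a change of at least 2-fold, 18 members rose in Hanyou73, which is 19.1% beside 12.3% of all genes, and 8 of the 18 were clade A genes. Of the tested members, 8 reached the filter in fewer than 3 watered libraries, so a rise was favoured by their selection. OsPP2C51, Os04g0167875, Os03g0268750, Os01g0846150, Os01g0656250 and Os05g0457300 are of this kind and among the 18. The 19.1% is thus partly a result of the filter. In Hanhui3, 4 members rose this much (4.26% beside 4.05%), 3 of them of clade A, and in Huhan7B 3 did (3.19% beside 3.46%), 2 of them of clade A. OsPP2C51 and Os04g0167875 are also among the 3 of Huhan7B. Falls of this size were seen for 5 members in Hanyou73 (5.32% beside 8%), 3 in Hanhui3 (3.19% beside 3.08%) and 1 in Huhan7B (1.06% beside 3.98%). None of those that fell was a clade A gene.

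The clade A genes rose together. In each of the 3 lines 8 of the 9 passed the test and were higher under drought, none was lower, and OsABIL2 was not called. OsPP2C51 reached 1 FPKM in droughted libraries only, so it had to differ to be tested, and 7 of the other 8 rose in each line. Of all tested genes 45%, 35.1% and 21.2% were higher in Hanyou73, Hanhui3 and Huhan7B. The median log2 change of the 9 was 2.10 in Hanyou73, 0.79 in Hanhui3 and 0.88 in Huhan7B. Without OsPP2C51 it was 2.02, 0.86 and 0.88. Each call of the 8 genes that rose, OsPP2C51 among them, held in the 3 lines under every alternative setting and with any 1 library left out. The list was chosen with earlier results of these data known, so its direction is not independent evidence. All changes are on the log2(FPKM + 1) scale with their standard error, and n is 3 libraries per group throughout.

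OsPP2C49 (Os05g0457200), a clade A phosphatase reported to dampen abscisic acid responses in rice, had a large drought change in every line. It had 46.8, 47.6 and 47.5 FPKM in droughted Hanyou73, against 2.69, 2.26 and 3.13 FPKM in watered Hanyou73. It had 49.1, 51.4 and 49.9 FPKM in droughted Hanhui3, against 13.8, 16.0 and 15.5 FPKM in watered Hanhui3. It had 26.5, 25.7 and 26.1 FPKM in droughted Huhan7B, against 2.54, 3.12 and 4.25 FPKM in watered Huhan7B. The droughted libraries were far above the watered ones in every line with no overlap, and the watered Hanyou73 and Huhan7B libraries were the lowest. The changes were 3.72 ± 0.11 in Hanyou73, 1.67 ± 0.11 in Hanhui3 and 2.67 ± 0.11 in Huhan7B (adjusted p = 1.06e-13, 6.68e-09 and 1.8e-11, limma). No phosphatase domain is annotated for its row, although Swiss-Prot gives PP2C 49 as its best match.

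OsPP2C51 (Os05g0572700), which is known to promote seed germination, was almost silent in watered leaves. It was listed at 0 in all watered libraries of Hanyou73 and Hanhui3, and at 0.06, 0 and 0.08 FPKM in watered Huhan7B. Under drought it had 12.4, 11.0 and 14.2 FPKM in Hanyou73, 0.89, 0.96 and 0.40 FPKM in Hanhui3 and 1.64, 1.66 and 1.73 FPKM in Huhan7B. No fold is given against groups listed at 0, and the rise passed the test in each line (adjusted p = 1.83e-13, 3.95e-05 and 9.6e-08, limma). All 6 libraries in which it reached 1 FPKM were droughted. A rise was therefore built into its selection, and these tests are no support for one. The droughted Hanyou73 libraries were above all parental ones.

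OsPP2C30 (Os03g0268600), which is known to bind a PYL receptor and SAPK2, was a gene of modest level in the parents and a high one in the droughted hybrid. It had 93.2, 82.1 and 83.8 FPKM in droughted Hanyou73, against 17.2, 14.9 and 18.6 FPKM in watered Hanyou73. It had 9.98, 9.38 and 10.1 FPKM in droughted Hanhui3, against 7.30, 5.55 and 5.64 FPKM in watered Hanhui3. It had 9.56, 10.4 and 9.01 FPKM in droughted Huhan7B, against 5.47, 4.89 and 4.45 FPKM in watered Huhan7B. Droughted and watered libraries did not overlap in any line, and the watered hybrid lay above the droughted parents. The changes were 2.29 ± 0.10 in Hanyou73, 0.60 ± 0.10 in Hanhui3 and 0.85 ± 0.10 in Huhan7B.

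PP2C1 (Os09g0325700), whose Swiss-Prot match is PP2C 68, followed a like pattern from different parental levels. It had 144, 136 and 127 FPKM in droughted Hanyou73, against 28.5, 25.8 and 29.1 FPKM in watered Hanyou73. It had 18.4, 16.0 and 18.1 FPKM in droughted Hanhui3, against 9.78, 9.63 and 6.91 FPKM in watered Hanhui3. It had 38.8, 37.0 and 35.7 FPKM in droughted Huhan7B, against 19.1, 19.2 and 21.2 FPKM in watered Huhan7B. The droughted hybrid was the highest group, and watered Hanhui3 was the lowest. The changes were 2.25 ± 0.10 in Hanyou73, 0.93 ± 0.10 in Hanhui3 and 0.87 ± 0.10 in Huhan7B.

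OsPP2C08 (Os01g0656200), another clade A phosphatase, also had its largest change in the hybrid. It had 77.0, 77.3 and 68.5 FPKM in droughted Hanyou73, against 15.6, 15.8 and 18.2 FPKM in watered Hanyou73. It had 27.4, 26.9 and 28.6 FPKM in droughted Hanhui3, against 22.2, 20.2 and 18.8 FPKM in watered Hanhui3. It had 14.6, 15.9 and 18.0 FPKM in droughted Huhan7B, against 8.75, 8.14 and 7.95 FPKM in watered Huhan7B. The droughted and watered libraries did not overlap in any line, and watered Hanhui3 lay above droughted Huhan7B. The changes were 2.10 ± 0.08 in Hanyou73, 0.42 ± 0.08 in Hanhui3 and 0.88 ± 0.08 in Huhan7B.

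OsPP15, OsPP2C06-OsABI2 and OsPP2C50 made up most of the summed clade A FPKM. OsPP15 (Os01g0846300), the gene of Swiss-Prot PP2C 9, had 239, 232 and 233 FPKM in droughted Hanyou73, against 60.4, 57.2 and 64.4 FPKM in watered Hanyou73. It had 83.3, 84.3 and 83.7 FPKM in droughted Hanhui3, against 41.4, 42.3 and 37.3 FPKM in watered Hanhui3. It had 89.8, 96.2 and 91.8 FPKM in droughted Huhan7B, against 45.4, 48.7 and 53.6 FPKM in watered Huhan7B. The changes of OsPP15 were 1.93 ± 0.06, 1.04 ± 0.06 and 0.90 ± 0.06 in Hanyou73, Hanhui3 and Huhan7B, and its level in the droughted hybrid was the highest of any clade A gene in any group.

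OsPP2C06-OsABI2 (Os01g0583100), the rice counterpart of the Arabidopsis abscisic acid regulator ABI2 by name, had 200.2, 201 and 204 FPKM in droughted Hanyou73, against 58.9, 59.2 and 61.0 FPKM in watered Hanyou73. It had 72.4, 73.6 and 79.0 FPKM in droughted Hanhui3, against 30.9, 30.5 and 29.4 FPKM in watered Hanhui3. It had 59.2, 52.8 and 56.4 FPKM in droughted Huhan7B, against 28.3, 28.2 and 32.6 FPKM in watered Huhan7B. The droughted and watered libraries did not overlap in any line. The watered parents differed by 0.03, which was not called, but under median-ratio scaling the difference was 0.22 and called. The changes were 1.74 ± 0.05, 1.28 ± 0.05 and 0.90 ± 0.05 in Hanyou73, Hanhui3 and Huhan7B.

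OsPP2C50 (Os05g0537400), a clade A phosphatase whose complex with an abscisic acid receptor has been studied, had 199.7, 195 and 196 FPKM in droughted Hanyou73, against 68.7, 62.7 and 66.3 FPKM in watered Hanyou73. It had 54.3, 53.6 and 51.6 FPKM in droughted Hanhui3, against 28.7, 31.1 and 31.6 FPKM in watered Hanhui3. It had 57.2, 58.1 and 56.7 FPKM in droughted Huhan7B, against 40.5, 44.2 and 44.2 FPKM in watered Huhan7B. Its droughted parental libraries lay below the watered hybrid. The changes were 1.57 ± 0.04, 0.79 ± 0.04 and 0.41 ± 0.04 in Hanyou73, Hanhui3 and Huhan7B, the last of which is the smallest call among the 8 genes that rose.

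OsABIL2 (Os05g0592800), the clade A gene of Swiss-Prot PP2C 53, was the 1 clade A gene with no call in any line. It had 22.9, 22.1 and 22.3 FPKM in droughted Hanyou73, against 24.7, 22.1 and 22.1 FPKM in watered Hanyou73. It had 13.9, 15.4 and 15.9 FPKM in droughted Hanhui3, against 16.1, 14.8 and 13.7 FPKM in watered Hanhui3. It had 16.5, 18.3 and 18.2 FPKM in droughted Huhan7B, against 16.9, 14.9 and 15.5 FPKM in watered Huhan7B. Droughted and watered libraries overlapped in all 3 lines. The changes were -0.03 ± 0.07, 0.02 ± 0.07 and 0.15 ± 0.07 in Hanyou73, Hanhui3 and Huhan7B (adjusted p = 0.722, 0.859 and 0.0776, limma). The Huhan7B value passed the threshold without droughted replicate 1 (0.20) or without watered replicate 1 (0.20) of that line, and with median-ratio scaling, which gave 0.26. With that scaling the Hanyou73 value was -0.20 and called.

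**Figure D2:**
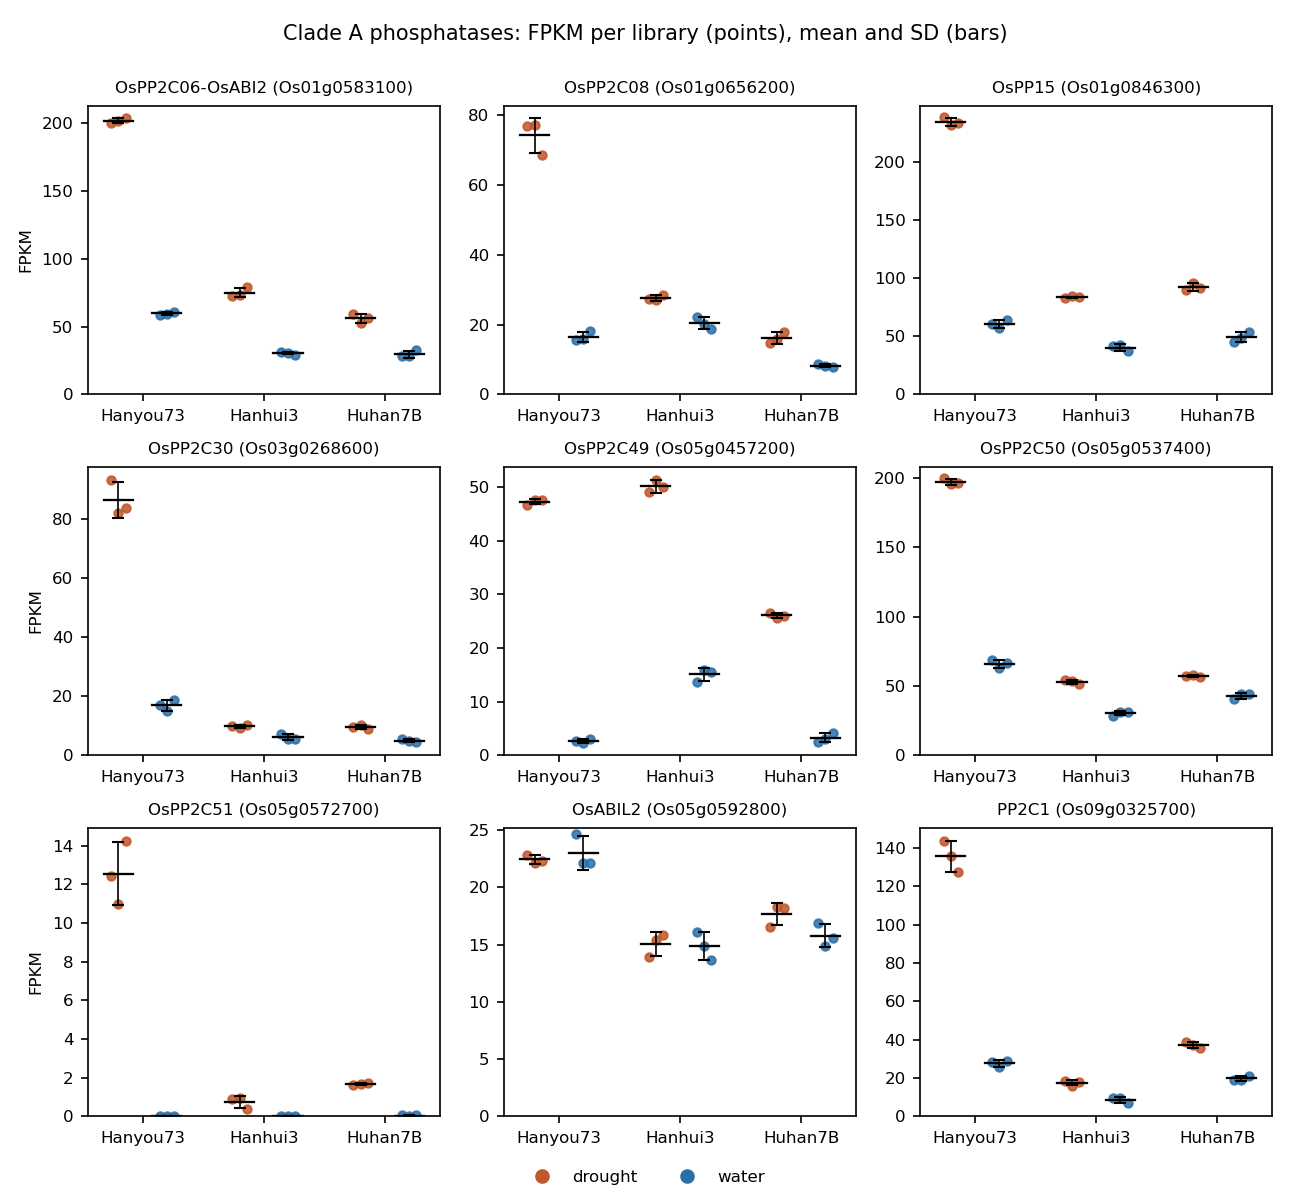
FPKM of the 9 clade A genes in each library, with drought left of water within each line and with the mean and SD of 3 libraries as bars. Drought libraries lie above water libraries for 8 of the 9 genes in all 3 lines, and OsABIL2 stays between 13.7 and 24.7 FPKM. OsPP2C51, among the 8, passed the filter through droughted libraries only, so a rise was built into its selection. The share of all tested genes with such a separation was not counted.

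The KEGG orthology entry named PP2C holds these 9 genes and 8 more members, of which 5 passed the filter. These 5 have no annotated phosphatase domain, and 4 of them are loci of low level beside a clade A gene in the ID order, with the same Swiss-Prot match as that neighbour. Os03g0268750, next to OsPP2C30, had 3.47, 3.92 and 3.54 FPKM in droughted Hanyou73, against 0.38, 0.92 and 0.39 FPKM in watered Hanyou73. Os01g0656250 next to OsPP2C08, Os01g0846150 next to OsPP15 and Os05g0457300 next to OsPP2C49 also rose in Hanyou73, by 1.15 ± 0.18, 1.26 ± 0.15 and 1.07 ± 0.18. Each of these 4 rows reached at most 3.92 FPKM in any library. They moved with a neighbour whose reads they could share, so their rise is uncertain. They also passed the filter through droughted libraries: all libraries at 1 FPKM were droughted for Os03g0268750, Os01g0846150 and Os05g0457300, and 3 of 4 for Os01g0656250. A rise was therefore built into their selection, and their tests are no support for one. The fifth, Os04g0167875, is a locus of 261 bases with 10.3, 5.52 and 32.6 FPKM in droughted Hanyou73, against 0, 0 and 5.58 FPKM in watered Hanyou73, where the groups overlapped. In Huhan7B it had 0, 5.17 and 16.3 FPKM under drought and was listed at 0 in water, and that call was lost without droughted replicate 2 or 3 of Huhan7B or without any 1 of its watered libraries.

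The partners of clade A in the pathway did not all move with it. Of 14 rows described as PYL receptors 6 passed the filter, and 1 rose and 2 fell in Hanyou73, 1 rose and 1 fell in Hanhui3, and 2 rose and 2 fell in Huhan7B. Over all tested genes 45% rose and 25.7% fell in Hanyou73, 35.1% and 18.4% in Hanhui3, and 21.2% and 32.1% in Huhan7B. The 2 falls in Huhan7B, OsPYL-RCAR3 and OsPYL-RCAR5, were not called under median-ratio scaling, at -0.19 and -0.0163. The rise of OsPYL-RCAR2 there, a receptor row of low level, was lost without droughted or watered replicate 3 of Huhan7B, at 0.47 and 0.63, and in the fit to only the groups compared (adjusted p = 0.0547, limma). OsPYL-RCAR4 (Os03g0297600), one of these receptors, had 2.46, 2.82 and 2.42 FPKM in droughted Hanyou73, against 16.5, 16.1 and 18.0 FPKM in watered Hanyou73. It had 13.2, 12.1 and 14.8 FPKM in droughted Hanhui3, against 64.0, 63.8 and 50.4 FPKM in watered Hanhui3. The change was -2.32 ± 0.09 in Hanyou73 and -2.07 ± 0.09 in Hanhui3, and -0.15 ± 0.09 in Huhan7B, where it was not called (adjusted p = 0.193, limma). OsPYL-RCAR3 (Os02g0255500) had 49.1, 49.2 and 45.5 FPKM in droughted Hanyou73, against 15.3, 14.0 and 18.6 FPKM in watered Hanyou73. It rose by 1.54 ± 0.10 there and by 0.60 ± 0.10 in Hanhui3.

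Of 11 rows described as SAPK kinases, a family that includes targets of clade A phosphatases, 10 passed the filter. In Hanyou73 6 rose and 3 fell, beside 45% and 25.7% of all tested genes. In Hanhui3 8 rose and 1 fell, beside 35.1% and 18.4%, and in Huhan7B 7 rose and 1 fell, beside 21.2% and 32.1%. SAPK10 (Os03g0610900), known to phosphorylate bZIP factors, had 46.9, 47.4 and 47.5 FPKM in droughted Hanyou73, against 11.0, 12.8 and 11.9 FPKM in watered Hanyou73. It rose by 1.91 ± 0.09 in Hanyou73, 0.69 ± 0.09 in Hanhui3 and 0.68 ± 0.09 in Huhan7B. SAPK2 (Os07g0622000), a kinase of the abscisic acid response under drought, had 34.2, 36.6 and 36.6 FPKM in droughted Hanyou73, against 98.6, 95.5 and 98.4 FPKM in watered Hanyou73, and the fall was -1.42 ± 0.05. SAPK2 fell in Hanhui3, with a change of -0.24 ± 0.05, and had 0.05 ± 0.05 in Huhan7B, where it was not called. SAPK7 (Os04g0432000) went opposite ways, with -0.86 ± 0.10 in Hanyou73 and 1.27 ± 0.10 and 0.74 ± 0.10 in Hanhui3 and Huhan7B.

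The bZIP factors of the abscisic acid response, at the end of the chain, rose in every line, 5 of 5 tested from a list of 6. Of all tested genes 45% rose in Hanyou73, 35.1% in Hanhui3 and 21.2% in Huhan7B. The Huhan7B call of BZIP46, at 0.31, lay near the threshold (adjusted p = 0.0456, limma) and was lost in 14 of the 18 fits without 1 library and in 3 other alternatives. BZIP12 (Os01g0867300), also known as OsABF1, had 94.7, 94.5 and 92.2 FPKM in droughted Hanyou73, against 10.7, 12.7 and 10.8 FPKM in watered Hanyou73. Its change was 2.94 ± 0.07 in Hanyou73, 1.70 ± 0.07 in Hanhui3 and 0.35 ± 0.07 in Huhan7B. BZIP23 (Os02g0766700), a drought response activator, rose by 1.92 ± 0.07, 1.24 ± 0.07 and 0.92 ± 0.07 in Hanyou73, Hanhui3 and Huhan7B. The median of the 5 factors was 1.05, 1.24 and 0.35 in the same lines, so the order of the lines was not that of clade A.

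Outside clade A the drought responses went both ways, and several of the large ones were found in Hanyou73. Of the 85 other members tested, 37 rose and 23 fell in Hanyou73, 25 rose and 12 fell in Hanhui3, and 11 rose and 39 fell in Huhan7B. Their median log2 change was 0.13, 0.08 and -0.18 in the same lines, beside 0.18, 0.10 and -0.07 over all tested genes. In Hanyou73 43.5% of the 85 rose and 27.1% fell, beside 45% and 25.7% of all genes. In Hanhui3 these shares were 29.4% and 14.1%, beside 35.1% and 18.4%. In Huhan7B 12.9% rose and 45.9% fell, beside 21.2% and 32.1%. The Huhan7B split of all tested members narrowed under median-ratio scaling, as given above, so these counts depend on the scaling. They also depend on the filter, which favoured rises. Of the 78 others at the filter in 3 or more watered libraries, 30 rose (38.5%) and 23 fell (29.5%) in Hanyou73. In Hanhui3 23 of the 78 rose and 12 fell, and in Huhan7B 8 rose and 39 fell. This limit was chosen after seeing the data.

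OsPP2C59 (Os06g0698300) had the largest rise of these among members with a phosphatase domain. It had 68.4, 68.6 and 71.8 FPKM in droughted Hanyou73, against 12.4, 14.2 and 10.8 FPKM in watered Hanyou73. It had 15.7, 16.4 and 15.3 FPKM in droughted Hanhui3, against 3.72, 5.54 and 5.70 FPKM in watered Hanhui3. It had 15.5, 13.7 and 13.4 FPKM in droughted Huhan7B, against 19.4, 17.3 and 20.7 FPKM in watered Huhan7B. It was higher under drought in the hybrid and in Hanhui3 and lower under drought in Huhan7B, with no overlap in any line. The changes were 2.40 ± 0.12, 1.5 ± 0.12 and -0.41 ± 0.12 in Hanyou73, Hanhui3 and Huhan7B.

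The next 3 members were chosen after their values were seen, and not by the rule for named genes. OsPP2C32 (Os03g0292100) had 110.4, 114 and 106 FPKM in droughted Hanyou73, against 37.1, 30.5 and 35.1 FPKM in watered Hanyou73. Its change was 1.66 ± 0.07 in Hanyou73 and 0.29 ± 0.07 in Huhan7B, and 0.01 ± 0.07 in Hanhui3, where it was not called (adjusted p = 0.908, limma). OsPP2C02 (Os01g0295700) had 71.5, 75.6 and 75.0 FPKM in droughted Hanyou73, against 44.9, 46.3 and 43.3 FPKM in watered Hanyou73, a change of 0.71 ± 0.06, while Huhan7B showed -0.24 ± 0.06. OsPP2C43 (Os04g0584300), with a KEGG entry for pyruvate dehydrogenase phosphatase, had 10.4, 10.7 and 10.4 FPKM in droughted Hanyou73, against 3.37, 4.15 and 3.22 FPKM in watered Hanyou73, and it stayed at or below 1.58 FPKM in the libraries of the parents.

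Among members with a phosphatase domain, the falls of Hanyou73 were led by OsPP2C27, OsPP2C72 and OsPP2C78. OsPP2C27 (Os02g0799000), known to act on a kinase and a transcription factor of the rice chilling response, had 31.0, 33.7 and 32.0 FPKM in droughted Hanyou73, against 107, 105 and 106 FPKM in watered Hanyou73. It had 27.9, 27.7 and 24.5 FPKM in droughted Hanhui3, against 33.0, 32.2 and 33.3 FPKM in watered Hanhui3. It had 32.0, 32.5 and 30.3 FPKM in droughted Huhan7B, against 27.6, 31.8 and 29.5 FPKM in watered Huhan7B. The watered hybrid stood alone at over 100 FPKM, and the droughted hybrid lay near the parents. The changes were -1.69 ± 0.06 in Hanyou73, -0.29 ± 0.06 in Hanhui3 and 0.09 ± 0.06 in Huhan7B, where it was not called (adjusted p = 0.185, limma).

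OsPP2C72 (Os10g0544900) was also highest in the watered hybrid. It had 17.2, 17.0 and 18.4 FPKM in droughted Hanyou73, against 58.1, 56.6 and 56.4 FPKM in watered Hanyou73. It had 12.2, 13.0 and 11.1 FPKM in droughted Hanhui3, against 14.0, 12.5 and 12.6 FPKM in watered Hanhui3. It had 19.4, 20.3 and 18.1 FPKM in droughted Huhan7B, against 27.1, 27.0 and 26.9 FPKM in watered Huhan7B. The fall was -1.65 ± 0.06 in Hanyou73 and -0.47 ± 0.06 in Huhan7B, and Hanhui3 showed -0.10 ± 0.06, which was not called (adjusted p = 0.165, limma). The adjacent locus Os10g0544950, which has the same Swiss-Prot match and no annotated domain, had 4.69, 6.87 and 5.33 FPKM in droughted Hanyou73, against 20.3, 21.0 and 18.8 FPKM in watered Hanyou73, and its reads could be shared with OsPP2C72.

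OsPP2C78 (Os12g0580900) fell in every line. It had 6.46, 6.73 and 6.59 FPKM in droughted Hanyou73, against 17.3, 16.2 and 16.2 FPKM in watered Hanyou73. It had 4.32, 4.00 and 3.16 FPKM in droughted Hanhui3, against 12.6, 12.7 and 14.9 FPKM in watered Hanhui3. It had 13.7, 13.5 and 12.9 FPKM in droughted Huhan7B, against 40.9, 40.5 and 37.8 FPKM in watered Huhan7B. Droughted and watered libraries did not overlap, and the watered Huhan7B libraries were the highest. The changes were -1.21 ± 0.08, -1.58 ± 0.08 and -1.50 ± 0.08 in Hanyou73, Hanhui3 and Huhan7B.

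OsBIPP2C1 (Os03g0192500), known from its induction by a chemical activator of disease resistance, also fell in every line. It had 16.4, 15.2 and 15.1 FPKM in droughted Hanyou73, against 29.9, 31.4 and 34.2 FPKM in watered Hanyou73. It had 60.01, 60.6 and 59.2 FPKM in droughted Hanhui3, against 122, 144 and 151 FPKM in watered Hanhui3. It had 47.2, 43.6 and 39.96 FPKM in droughted Huhan7B, against 69.7, 69.2 and 72.1 FPKM in watered Huhan7B. The hybrid lay below both parents in either condition. The changes were -0.98 ± 0.07, -1.19 ± 0.07 and -0.68 ± 0.07 in Hanyou73, Hanhui3 and Huhan7B.

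OsPP2C04 (Os01g0541900) fell by -1.04 ± 0.07 in Hanyou73, with 22.4, 20.6 and 24.2 FPKM in droughted Hanyou73, against 45.1, 47.9 and 48.5 FPKM in watered Hanyou73, and by smaller amounts in the parents (-0.36 ± 0.07 in Hanhui3 and -0.59 ± 0.07 in Huhan7B). OsPP2C41 (Os04g0452000) had 46.0, 46.0 and 46.7 FPKM in droughted Hanyou73, against 80.3, 81.2 and 85.2 FPKM in watered Hanyou73. It had 41.6, 38.7 and 40.6 FPKM in droughted Huhan7B, against 75.8, 73.9 and 73.3 FPKM in watered Huhan7B. In Hanhui3 it stayed at 21.8 to 23.3 FPKM in all 6 libraries. Its changes were -0.82 ± 0.04 in Hanyou73 and -0.87 ± 0.04 in Huhan7B, while Hanhui3 showed -0.01 ± 0.04 and was not called (adjusted p = 0.92, limma).

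**Figure D3:**
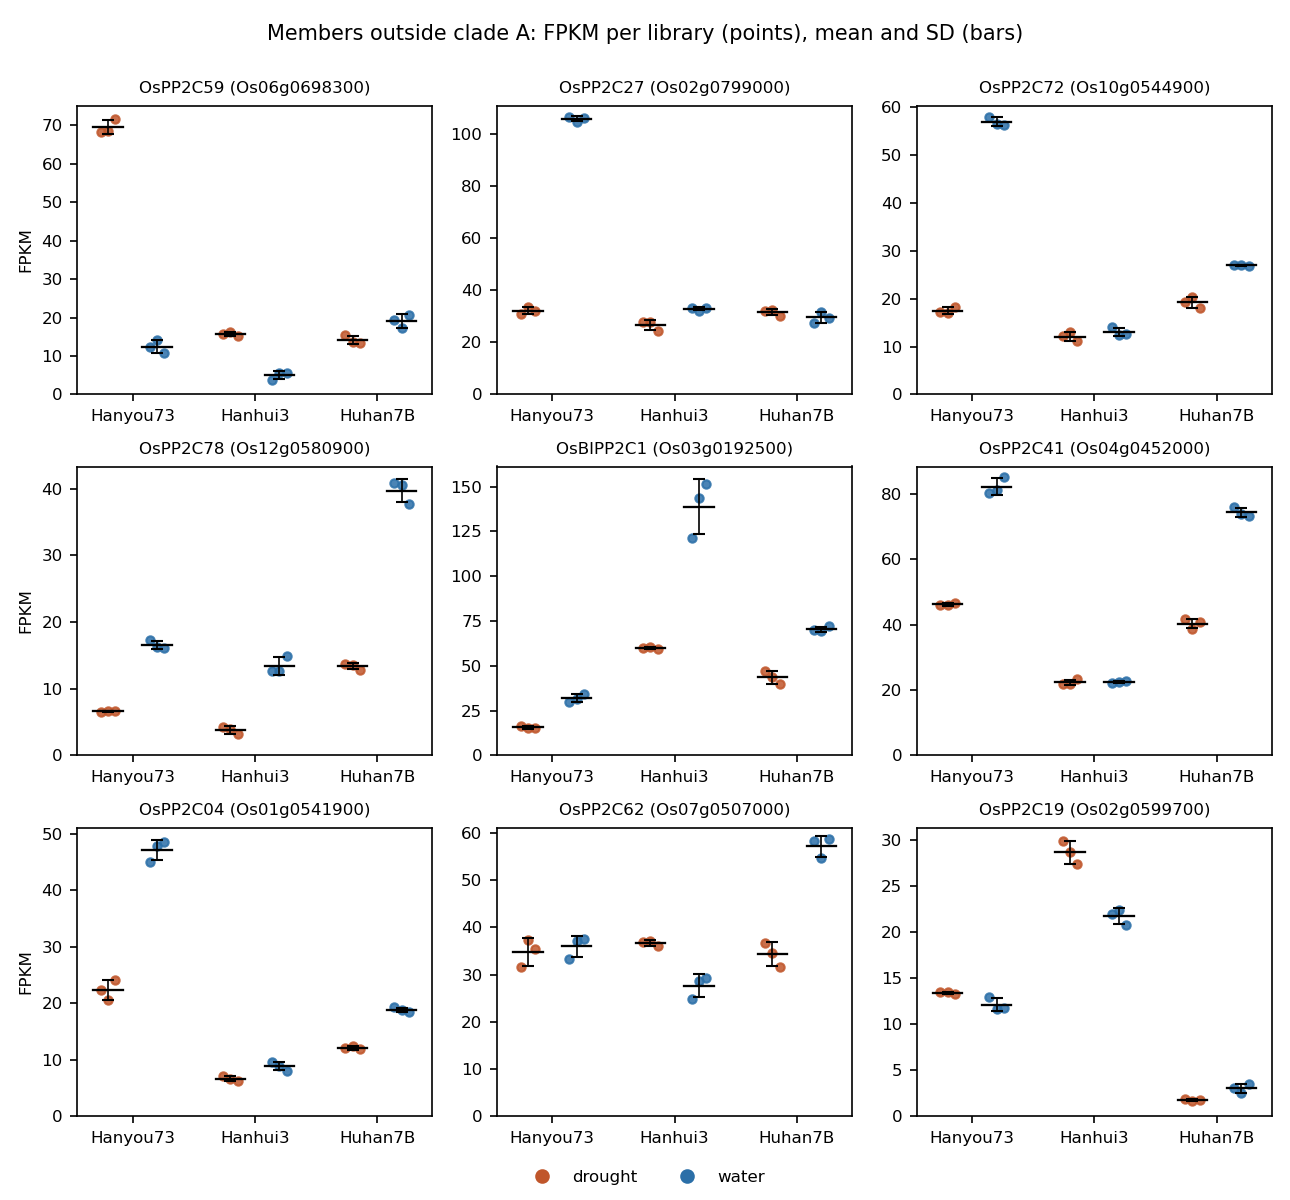
FPKM per library of 9 members outside clade A, with drought left of water within each line and with the mean and SD of 3 libraries as bars. OsPP2C27 and OsPP2C72 are highest in watered Hanyou73, OsPP2C78 and OsBIPP2C1 are lower under drought in all 3 lines, and OsPP2C59 is lower under drought in Huhan7B alone.

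Across the 3 lines, 10 members rose in all (10.6% beside 9.04% of all genes), 6 fell in all (6.38% beside 6.2%) and 13 were called in none (13.8% beside 11.8%). The 10 that rose are the 8 clade A genes, the locus Os05g0457300 and Os02g0151800, a row of high level whose Swiss-Prot match is PP2C 33 and which has no annotated phosphatase domain. Os02g0151800 had 124, 123 and 124 FPKM in droughted Hanyou73, against 55.1, 54.9 and 53.9 FPKM in watered Hanyou73. OsPP2C51 and Os05g0457300, both among the 10 that rose, reached 1 FPKM in droughted libraries only, so a rise was built into their selection. The 6 that fell are OsPP2C04, OsBIPP2C1, OsPP2C38, OsPP2C47, OsPP2C78 and Os10g0544950. Among the 13 without a call are OsABIL2 and XB15, the phosphatase that attenuates the immune receptor XA21. XB15 had 25.6, 23.7 and 29.3 FPKM in droughted Hanyou73, against 23.9, 22.9 and 22.8 FPKM in watered Hanyou73.

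Grouped by KEGG orthology entry, the entry PP2C had the highest median in each line. It was 1.84 in Hanyou73, 0.69 in Hanhui3 and 0.88 in Huhan7B over 14 tested members, of which 13, 9 and 11 rose and none fell. Over all tested genes 45%, 35.1% and 21.2% rose in the same lines, and 25.7%, 18.4% and 32.1% fell. For 6 of the 14, OsPP2C51 and the 5 outside clade A, fewer than 3 watered libraries reached the filter, so a rise was favoured by their selection. Without them, a choice made after seeing the data, 7 of 8 rose in each line, with medians of 2.02, 0.86 and 0.88. The entry PPM1L, with 14 tested members, had medians of 0.27, 0.16 and -0.28 in the same lines, and PTC2_3, with 11, had 0.29, 0.05 and -0.21. PDP, the entry for pyruvate dehydrogenase phosphatase, had 6 tested members with medians of 0.43, 0.21 and -0.11. PPM1G had 4, with medians of -0.11, 0.08 and -0.09. The 39 members without an entry had medians of 0.05, 0.03 and -0.19.

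**Figure D4:**
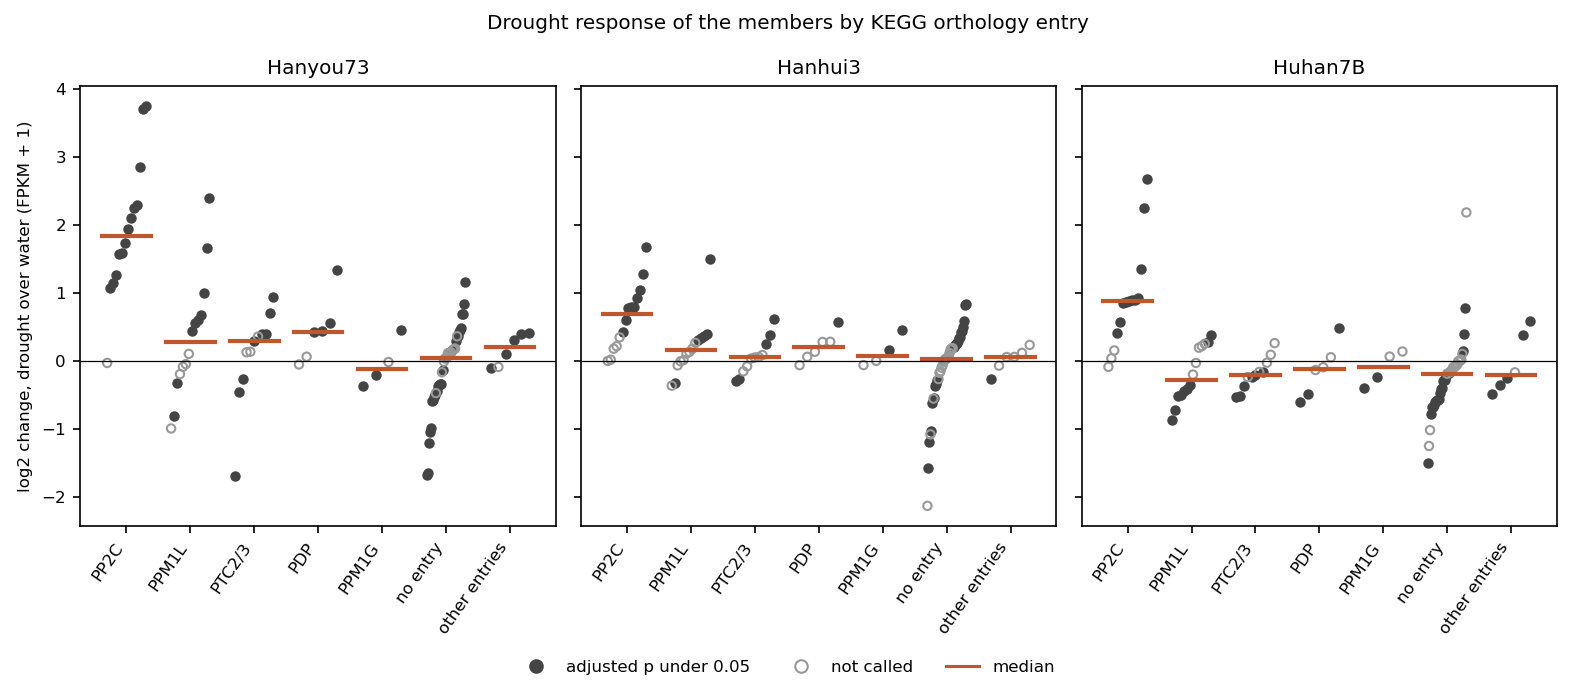
Log2 drought change of each tested member, drought over water on log2(FPKM + 1), by KEGG orthology entry and line, with filled points for calls, open points for members not called and a line at the median. The entry PP2C, which holds the 9 clade A genes, has a median of 1.84 in Hanyou73, 0.69 in Hanhui3 and 0.88 in Huhan7B, and the medians of the other groups drawn lie between -0.28 and 0.43.

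The response of the hybrid was then set against the mean response of its parents as an interaction, that is the drought change of Hanyou73 minus the mean drought change of Hanhui3 and Huhan7B. Of 94 members 57 passed, which is 60.6% beside 58.3% of all genes. They were 43 higher (45.7% beside 38.8%) and 14 lower (14.9% beside 19.5%), and median-ratio scaling gave 28 higher and 23 lower. A difference of at least 2-fold was called higher for 9 members (9.57% beside 7.75%), 5 of them of clade A, and lower for 2 (2.13% beside 5.51%). Of the 9, 7 belong to the KEGG entry PP2C. OsPP2C51 and all tested members of that entry outside clade A reached the filter in fewer than 3 watered libraries. The shares called higher are thus not independent of the filter. All 8 clade A genes that responded rose more in the hybrid, with a median difference of 1.35 over the 9. The differences were 2.68 ± 0.14 for OsPP2C51, 1.56 ± 0.12 for OsPP2C30, 1.54 ± 0.14 for OsPP2C49, 1.45 ± 0.10 for OsPP2C08 and 1.34 ± 0.12 for PP2C1. They were 0.97 ± 0.05 for OsPP2C50, 0.96 ± 0.07 for OsPP15 and 0.65 ± 0.07 for OsPP2C06-OsABI2. OsABIL2 had -0.12 ± 0.09 and was not called (adjusted p = 0.262, limma), but it was called at -0.28 under median-ratio scaling. The value of OsPP2C51 rests on watered groups listed at or near 0, so its size depends on the pseudocount. This gene also passed the filter through droughted libraries only, so its value is not independent of the selection.

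Outside clade A, OsPP2C59 rose more in the hybrid, by 1.85 ± 0.14, and OsPP2C32 by 1.51 ± 0.09. OsPP2C27, OsPP2C72 and OsPP2C04 fell more in the hybrid, with differences of -1.59 ± 0.07, -1.36 ± 0.07 and -0.56 ± 0.08. OsBIPP2C1, which fell in every line, had a difference of -0.05 ± 0.09 that was not called (adjusted p = 0.671, limma). OsPP2C78 fell less in the hybrid, by 0.33 ± 0.10. The secondary-wall and leaf marker levels that also differ between droughted Hanyou73 and the other groups are given above.

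**Figure D5:**
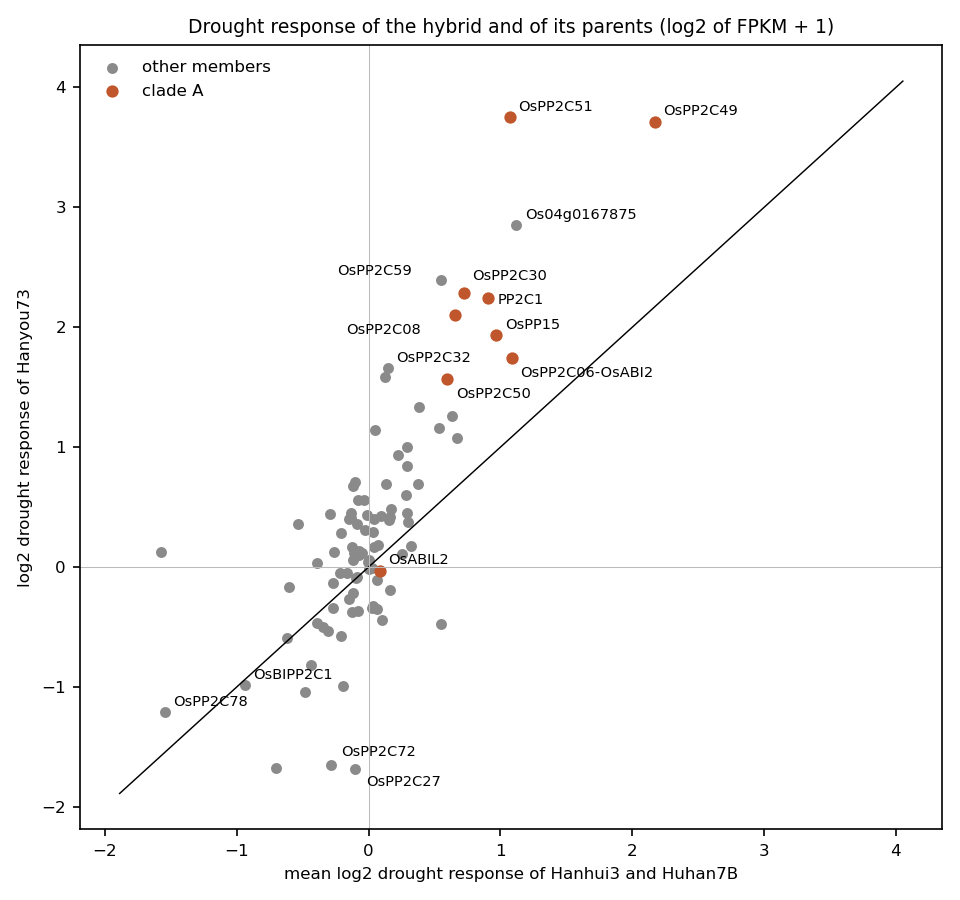
Log2 drought change of each tested member in Hanyou73 (vertical) against the mean log2 drought change of Hanhui3 and Huhan7B (horizontal), both on log2(FPKM + 1), with clade A in colour and the line of equal change. The 8 clade A genes that were called lie above the line, OsABIL2 lies near 0 on both axes, and OsPP2C27 and OsPP2C72 lie below the line.

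The levels of the hybrid were compared with the mid-parent value, the mean of both parental group means on the log2 scale. Under drought 71 members differed, which is 75.5% beside 72.7% of all genes. In Hanyou73 59 were higher (62.8% beside 58.4%) and 12 lower (12.8% beside 14.3%), and the scaled split was 37 to 33. In water 64 differed, which is 68.1% beside 67.2%. Here 45 were higher (47.9% beside 43.7%) and 19 lower (20.2% beside 23.5%), and the scaled split was 32 to 28. Under drought 20 members were at least 2-fold above the mid-parent, which is 21.3% beside 12.5% of all genes, and 7 of these were clade A genes. A high value in droughted Hanyou73 was favoured by the filter for some members. For Os03g0268750 and OsPP2C75 every library at 1 FPKM was of that group, and for Os01g0656250 3 of 4 were. OsPP2C51 and Os04g0167875, both among the 20, reached the filter in fewer than 3 watered libraries. The 21.3% is thus not independent of the filter. In water 11 members were (11.7% beside 12%), 2 of them of clade A. At least 2-fold below it were 2 members under drought (2.13% beside 3.36%) and 4 in water (4.26% beside 4.98%).

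Under drought all 9 clade A genes were above the mid-parent, beside 58.4% of all tested genes, with a median of 1.76. OsPP2C51, at 2.65 ± 0.10, reached 1 FPKM in droughted libraries only, so its value is not independent of the filter. OsPP2C30 was at 3.02 ± 0.09, PP2C1 at 2.36 ± 0.09, OsPP2C50 at 1.82 ± 0.04, OsPP2C08 at 1.76 ± 0.07, OsPP2C06-OsABI2 at 1.62 ± 0.05 and OsPP15 at 1.40 ± 0.05. OsPP2C49 and OsABIL2 were at 0.38 ± 0.10 and 0.44 ± 0.06, and neither was called once libraries were scaled by median ratios, at 0.07 and 0.14. In water 7 of the 9 were higher and OsPP2C49 was lower, at -1.17 ± 0.10, while OsPP2C51 was not called. Of all tested genes 43.7% were higher and 23.5% lower in water. OsPP2C08, at 0.31 ± 0.07 in water, was not called under that scaling, at 0.17.

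Among the others, OsPP2C04 and OsPP2C29 stood above the mid-parent under drought, at 1.22 ± 0.06 and 1.58 ± 0.09, and in water, at 1.78 ± 0.06 and 1.94 ± 0.09. OsPP2C27 and OsPP2C72 were at 0.14 ± 0.05 and 0.19 ± 0.05 under drought, and both changed sign under median-ratio scaling, to -0.16 and -0.11. In all, 9 of the 71 members called under drought changed sign with that scaling, 6 of them called in the opposite direction. In water they stood above it, at 1.73 ± 0.05 and 1.55 ± 0.05. OsPP2C29 (Os03g0207400) had 14.2, 16.2 and 13.8 FPKM in droughted Hanyou73, 3.20, 2.63 and 2.81 FPKM in droughted Hanhui3 and 6.10, 5.56 and 6.87 FPKM in droughted Huhan7B. OsBIPP2C1 lay below the mid-parent in both conditions, at -1.65 ± 0.06 under drought and -1.60 ± 0.06 in water. OsPP2C39, also below it, was at -0.55 ± 0.04 under drought and -1.04 ± 0.04 in water.

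A stricter reading asks whether all 3 libraries of the hybrid lay outside all 6 of the parents. Under drought 41 members lay above both parents (43.6% beside 41.7% of all genes) and 8 below (8.51% beside 8.26%). The 41 include OsPP2C51, Os03g0268750, OsPP2C75 and Os01g0656250, for which the filter favoured a high value in the droughted hybrid. In water 29 lay above (30.9% beside 28.1%) and 8 below (8.51% beside 12.8%). Clade A accounts for 8 of the 41, all but OsPP2C49, which in droughted Hanyou73 lay between Huhan7B and Hanhui3. OsBIPP2C1, OsPP2C17, OsPP2C38, OsPP2C39, OsPP2C48 and OsPP2C71 lay below both parents in either condition. OsPP2C38 (Os04g0321800) had 35.7, 34.3 and 34.6 FPKM in droughted Hanyou73, 52.9, 52.1 and 52.9 FPKM in droughted Hanhui3 and 56.3, 54.6 and 52.0 FPKM in droughted Huhan7B.

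The parents also differed from each other. Under drought 61 members differed between Hanhui3 and Huhan7B, which is 64.9% beside 58.9% of all genes. In Hanhui3 28 were higher (29.8% beside 32%) and 33 lower (35.1% beside 26.9%). In water 69 differed, which is 73.4% beside 66.4%. Here 20 were higher in Hanhui3 (21.3% beside 25.3%) and 49 lower (52.1% beside 41.2%), and the scaled split was 26 to 38. At least 2-fold higher in Hanhui3 were 6 members under drought (6.38% beside 7.15%) and 8 in water (8.51% beside 7.32%). At least 2-fold lower were 5 under drought (5.32% beside 6.96%) and 12 in water (12.8% beside 9.6%).

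Os01g0728400, a row without an annotated phosphatase domain whose Swiss-Prot match is PP2C 76, was listed at 0 in all 6 Huhan7B libraries. It had 43.5, 38.5 and 44.0 FPKM in droughted and 24.1, 29.8 and 29.3 FPKM in watered Hanhui3, and 40.8, 37.9 and 39.9 FPKM in droughted and 22.0, 18.2 and 25.0 FPKM in watered Hanyou73. The level of the hybrid was near that of Hanhui3.

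OsPP2C19 (Os02g0599700), 1 of a run of PP2C genes with neighbouring IDs, had 29.9, 28.6 and 27.3 FPKM in droughted Hanhui3, against 1.91, 1.64 and 1.80 FPKM in droughted Huhan7B. The droughted hybrid lay between them, at 13.5, 13.4 and 13.2 FPKM. The difference between the parents was 3.41 ± 0.08 under drought and 2.50 ± 0.08 in water. Os02g0151800 differed by 2.85 ± 0.04 under drought and 3.32 ± 0.04 in water.

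OsPP2C05 (Os01g0552300), the most abundant member, had 252, 272 and 268 FPKM in watered Hanhui3, against 119.8, 114 and 118 FPKM in watered Huhan7B. The watered hybrid had 120.5, 114 and 119 FPKM, at the level of Huhan7B. Hanhui3 was higher by 0.51 ± 0.03 under drought and 1.16 ± 0.03 in water. Higher in Huhan7B were OsPP2C78, at -1.58 ± 0.08 under drought and -1.50 ± 0.08 in water, OsPP2C41, at -0.82 ± 0.04 and -1.69 ± 0.04, and OsPP2C61, at -1.39 ± 0.10 and -1.42 ± 0.10. Of the clade A genes, PP2C1 was lower in Hanhui3 in both conditions (-1.05 ± 0.10 under drought and -1.10 ± 0.10 in water). OsPP2C49 and OsPP2C08 were higher in Hanhui3 under drought, by 0.92 ± 0.11 and 0.75 ± 0.08, and in water, by 1.92 ± 0.11 and 1.20 ± 0.08.

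The drought responses of the parents were compared as the change in Hanhui3 minus the change in Huhan7B. Of 94 members 55 passed, which is 58.5% beside 53.3% of all genes. They were 41 higher (43.6% beside 36.2%) and 14 lower (14.9% beside 17.1%), and the scaled split was 25 to 19. At least 2-fold, 5 were higher (5.32% beside 6.93%) and 1 was lower (1.06% beside 4.11%). The largest was OsPP2C59, at 1.91 ± 0.17, which was higher under drought in Hanhui3 and lower in Huhan7B. OsPP2C62 and OsPP2C28 followed the same order, with 0.40 ± 0.07 and 0.43 ± 0.06 in Hanhui3 and -0.72 ± 0.07 and -0.65 ± 0.06 in Huhan7B. OsPP2C62 (Os07g0507000) had 37.0, 37.1 and 36.0 FPKM in droughted Hanhui3, against 24.8, 28.7 and 29.3 FPKM in watered Hanhui3. It had 36.7, 34.6 and 31.7 FPKM in droughted Huhan7B, against 58.3, 54.6 and 58.6 FPKM in watered Huhan7B. The droughted parents were at a like level and the watered ones far apart.

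Within clade A 2 members responded more in Hanhui3 and 3 more in Huhan7B. OsPP2C49 rose less in Hanhui3, by -1.0 ± 0.16, and so did OsPP2C08, by -0.46 ± 0.12. OsPP2C51, at -0.56 ± 0.17, was not called with a pseudocount of 0.1, which gave -0.63. OsPP2C06-OsABI2 and OsPP2C50 rose more in Hanhui3, each by 0.38, and neither was called under median-ratio scaling, which gave 0.15 and 0.14. For OsPP15, OsPP2C30, PP2C1 and OsABIL2 the difference did not pass the test, but under median-ratio scaling OsPP2C30 and OsABIL2 were called, at -0.45 and -0.36.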

How the data were processed

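Groups were read from the sample labels. The submitters' processing notes name the build IRGSP-1.0 and the tools HISAT2, RSEM, StringTie, fastp and DESeq2, without their roles. What the authors deposited is FPKM, although neither labels nor file headers name the unit. It was inferred from the values, whose sums differ between libraries (958893 to 1140989) and whose low values move in steps set by gene length. For genes of 700 to 2500 bases, 75.1% to 79.1% of low values were whole fragment numbers within 0.1 once 290 to 320 bases were taken off the length. Counts were not used here.

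All 1017 rows of structural RNA were left out (26 would pass), and genes with at least 1 FPKM in 3 libraries were kept, 22590 in all. limma 3.58.1 in R 4.3.3 was fitted with trend to log2(FPKM + 1) with 6 group means over all 18 libraries. All 9 comparisons are contrasts of these means, two-sided, with Benjamini-Hochberg adjustment over the 22590 genes and a threshold of 0.05. A pseudocount understates changes of low genes. The script was tested on simulated data. Named genes were the clade A members, the 5 with the highest mean, up to 6 called members per direction in each drought response and up to 4 per direction in each other comparison (by size of change, with a group mean of at least 5 FPKM), and up to 2 pathway genes per list, direction and drought response. Members and lists were chosen with earlier results of these data known. The plan had allowed for counts with edgeR, which was not used, since the values are FPKM. Alternatives were a pseudocount of 0.1, a filter of 5 FPKM, no filter, median-ratio scaling, a replicate block, a fit to only the groups compared, and leaving out each library. Symbols are those of the table, and 55 members also matched a gene of the RefSeq annotation.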

Additional observations from a re-analysis of the deposited data

Results flagged for a closer look

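The drought responses of named members differed between lines by a test of the difference itself, the limma interaction with an adjusted p under 0.05 over all tested genes. All values are differences of log2 changes on log2(FPKM + 1), from 3 libraries per group. The responses of Hanyou73 exceeded the parental mean by 0.65 for OsPP2C06-OsABI2, 1.45 for OsPP2C08, 0.96 for OsPP15, 1.56 for OsPP2C30, 1.54 for OsPP2C49, 0.97 for OsPP2C50, 2.68 for OsPP2C51 and 1.34 for PP2C1. OsPP2C51 passed the filter through droughted libraries only, so its values here and below are not independent of the selection. Outside clade A the difference was 1.85 for OsPP2C59. It was negative for OsPP2C27 at -1.59, OsPP2C72 at -1.36, Os10g0544950 at -0.98 and OsPP2C04 at -0.56.

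The response of Hanhui3 minus that of Huhan7B was 1.91 for OsPP2C59, 1.12 for OsPP2C62, 1.08 for OsPP2C28 and 0.92 for OsPP2C03. It was 0.38 for OsPP2C06-OsABI2 and 0.38 for OsPP2C50. It was negative for OsPP2C49 at -1.0, OsPP2C08 at -0.46, OsPP2C51 at -0.56, OsPP2C44 at -0.70, OsPP2C65 at -0.67 and OsPP2C05 at -0.65. The causes were not tested.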

How the results depend on the processing

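Under every alternative tried each total of members called, both directions together, stayed within 1.5 times its value. The splits into higher and lower moved more than this in some comparisons under median-ratio scaling, as given above. With 1 library left out the counts ran from 62 to 68 for the Hanyou73 response, 41 to 48 for Hanhui3, 50 to 58 for Huhan7B, 53 to 58 for Hanyou73 minus the parental mean, 48 to 55 for the parental difference in response, 65 to 73 for the droughted and 55 to 65 for the watered hybrid against the mid-parent, and 52 to 62 for the droughted and 64 to 70 for the watered parents. Limited to the 86 members that 3 or more watered libraries brought past the filter, a choice made after seeing the data, 60, 42 and 54 were called in Hanyou73, Hanhui3 and Huhan7B. Of these, 37, 30 and 15 were higher and 23, 12 and 39 lower, so the calls lost were all rises. Of 4185 repeats of results named by the rule, 4106 kept direction and side of the threshold, 49 lost the call, 17 gained one and 13 changed sign.

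The 13 belong to small values, of which 1 was called. Under median-ratio scaling OsPP2C05, called in the Hanyou73 response, became -0.0699 and stayed called. Over all members and comparisons, 17 calls changed sign under this scaling, 7 of them called in the opposite direction. Of the 17, 9 belong to the droughted hybrid against the mid-parent, where OsPP2C01, OsPP2C27, OsPP2C28, OsPP2C47, OsPP2C57 and OsPP2C70 were called lower. OsPP15 and PP2C1 became -0.10 and -0.16 for the parental difference in response, OsPP2C30 became -0.0218 for the droughted parents, and OsABIL2 became -0.10 in the Hanhui3 response and 0.10 for the watered parents. With 1 library left out, OsABIL2 ran from -0.0551 to 0.0209 in Hanyou73 and from -0.0384 to 0.0744 in Hanhui3, PP2C1 from -0.0868 to 0.14 for the parental difference in response, OsPP2C30 from -0.022 to 0.0744 for the droughted parents, and OsPP2C06-OsABI2 from -0.005 to 0.0974 for the watered parents. The causes were not tested. OsPP2C05 was not called in Hanyou73 without watered replicate 2, at 0.09.

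The replicate numbers did not pair the libraries: same-numbered libraries of different groups correlated at -0.0874 to 0.091 in their deviations from the group means, and 8 of 18 libraries correlated best with their own number. The fit with the replicate block called 69, 47, 58, 56, 53, 71, 63, 58 and 69 members in the comparisons in the order above, and OsPP15 was no longer called between the droughted parents, at -0.14. Depth limits rows near 1 FPKM, where a few fragments set a value.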

Other observations

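Members with other known functions are given here mainly by their values in the hybrid. OsKAPP, the kinase-associated phosphatase that binds receptor kinases, had 10.1, 7.35 and 9.28 FPKM in droughted Hanyou73, against 6.67, 6.26 and 6.27 FPKM in watered Hanyou73. DCW11, a mitochondrial phosphatase linked to cytoplasmic male sterility, had 22.7, 31.9 and 27.0 FPKM in droughted Hanyou73, against 16.4, 18.5 and 15.0 FPKM in watered Hanyou73. OsPP2C38 had 35.7, 34.3 and 34.6 FPKM in droughted Hanyou73, against 48.7, 52.3 and 51.5 FPKM in watered Hanyou73. The droughted and watered Hanyou73 libraries did not overlap for these genes. OsKAPP and DCW11 were also higher under drought in Hanhui3, but lower in Huhan7B. In Huhan7B OsKAPP had 6.42, 6.61 and 5.57 FPKM under drought, against 9.52, 9.39 and 8.48 FPKM in water. DCW11 had 11.6, 15.0 and 15.5 FPKM in droughted Huhan7B, against 16.5, 23.0 and 21.3 FPKM in watered Huhan7B. OsPP23, which joins a phosphatase with other domains, had 23.2, 24.3 and 23.6 FPKM in droughted Hanyou73, against 26.0, 26.5 and 25.9 FPKM in watered Hanyou73.

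Among the 28 members below the filter are OsPP2C31, OsPP2C22, OsPP2C46 and OsPP2C63, each with a mean under 0.05 FPKM over the 18 libraries. A level this low was not distinguishable from a few stray fragments at this depth.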
